A study of Homo sapiens with 16 samples.

Results

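YAP1, WWTR1 (which encodes TAZ), TEAD1, LATS2, AMOTL1, AMOTL2, AJUBA, CCN1, CCN2 and ANKRD1 are 10 genes of the YAP and TEAD arm of the Hippo pathway, taken by symbol from a table of 59428 genes, with earlier results of these data known. RNA was read by QuantSeq, which sequences the 3' end of polyadenylated transcripts, in 16 libraries of the ovarian carcinoma lines OVCAR3, with intact BRCA1, and UWB1.289, with a deleterious BRCA1 mutation. Each line received either olaparib, a PARP inhibitor, or its vehicle DMSO for 96 h, with 4 libraries in each of the 4 groups. OVCAR3 received 7.5 µM olaparib in RPMI1640 with 20% FBS and bovine insulin, and UWB1.289 received 3.5 µM in a mixture of MEGM and RPMI1640 with 3% FBS. BRCA1 status, line, dose and medium therefore cannot be told apart, since each BRCA1 state is represented by 1 line. The sources describe 4 replicates without saying whether they were independent cultures, so p-values measure the spread between these libraries, which may be technical.

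In the Hippo pathway, a kinase cascade ending in LATS1 and LATS2 phosphorylates the coactivators YAP and TAZ and keeps them out of the nucleus. When the cascade is off, YAP and TAZ enter the nucleus, bind TEAD transcription factors and raise genes such as CCN1, CCN2 and ANKRD1. Several products of the pathway, among them LATS2 and AMOTL2, are themselves raised by YAP and act back on it, and in ovarian carcinoma YAP is mostly known as a growth-promoting factor.

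The promoters of CCN2 and ANKRD1 are shown as those of the genes that rose with olaparib in OVCAR3, and they were also the windows with the most matches to GGAATG, letters that TEAD factors are known to recognise. In the 250 bases before each RefSeq start (build GRCh38.p14, 5' to 3' on the gene's strand, GGAATG in capitals), CCN2 at chr6:131951373-131951622 on the minus strand held 3 matches and ANKRD1 at chr10:90921088-90921337 on the minus strand held 2.
CCN2: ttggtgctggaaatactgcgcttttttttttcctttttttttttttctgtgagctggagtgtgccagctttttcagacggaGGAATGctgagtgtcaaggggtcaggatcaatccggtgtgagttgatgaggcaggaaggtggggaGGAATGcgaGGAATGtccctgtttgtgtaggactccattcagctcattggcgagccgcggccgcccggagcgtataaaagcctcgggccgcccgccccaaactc
ANKRD1: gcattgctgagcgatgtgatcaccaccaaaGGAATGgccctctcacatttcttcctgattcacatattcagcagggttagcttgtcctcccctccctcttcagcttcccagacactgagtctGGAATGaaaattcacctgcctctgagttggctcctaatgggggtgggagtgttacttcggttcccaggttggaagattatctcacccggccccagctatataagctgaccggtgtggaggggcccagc

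The CCN2 matches lay 169 to 164, 104 to 99 and 95 to 90 bases before the start. In ANKRD1 they lay 220 to 215 and 128 to 123 bases before it. TGANTCA, a loose form of the AP-1 site in which N is any base, matched at 195 to 189, where ANKRD1 reads TGATTCA. Of 35116 promoter windows of the same length, 11.9% held GGAATG on either strand, 6.57% held TGANTCA and 1.16% held a CArG box, the site of serum response factor. Windows for 8 of the 10 genes were matched in the RefSeq table, with TEAD1 and CCN1 not among them. YAP1 had 1 GGAATG match, AMOTL2 and AJUBA had 1 match in 1 of their 2 windows each, and LATS2, AMOTL1 and WWTR1 had 0. None of the 8 genes had a CArG box in these windows. Such a match is a run of letters and not a measured binding site.

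**Figure D1:**
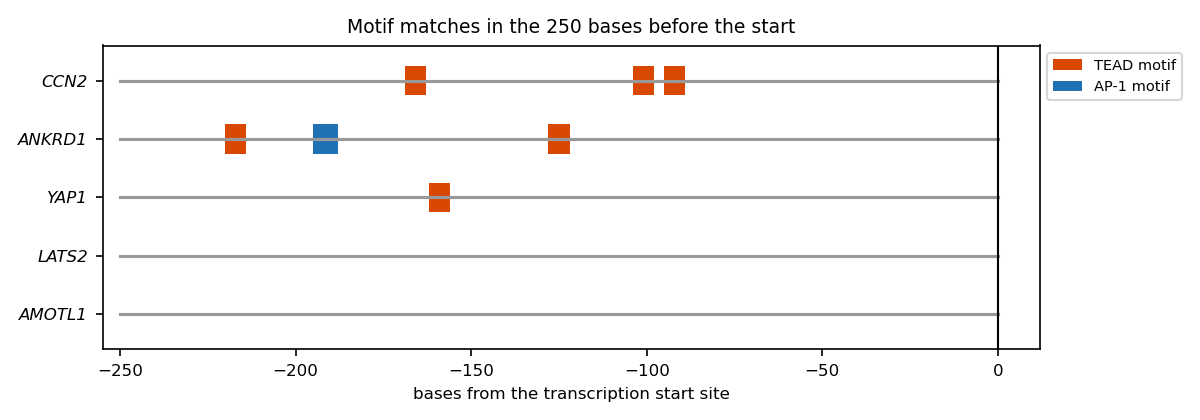
Positions of GGAATG (orange, TEAD) and TGANTCA (blue, labelled AP-1, with N any base) on either strand in the 250 bases before the start, for the 5 genes with 1 RefSeq window (horizontal axis in bases from the transcription start site). CCN2 holds 3 TEAD matches, ANKRD1 holds 2 and 1 TGANTCA match, YAP1 holds 1 TEAD match, and LATS2 and AMOTL1 hold 0.

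Totals ranged from 5599571 to 7730228 counts per library, and no library repeated another. The 10 genes had between 53 and 4392 counts in each library and together took 0.083% to 0.101% of the counts in OVCAR3 libraries and 0.161% to 0.222% in UWB1.289 libraries. The first principal component (84.5% of the variance) separated the lines and the second (4.38%) separated the treatments. All levels are given in CPM, a gene's counts relative to the TMM-scaled total of its library. The summed level of 8 epithelial markers was 4487 to 4833 CPM in OVCAR3 with DMSO and 2668 to 2975 with olaparib, and 6724 to 7211 and 5260 to 6369 CPM in UWB1.289. KRT18 had the highest level of the 8, at means of 1792 CPM in OVCAR3 and 4192 in UWB1.289 with DMSO. EPCAM, KRT8 and KRT18 were higher in UWB1.289 with DMSO, and KRT19, CDH1, PAX8, MUC16 and WT1 were lower. With olaparib all 8 means fell in OVCAR3. In UWB1.289 those of KRT8, KRT18 and KRT19 fell and those of EPCAM, PAX8, CDH1 and MUC16 rose. WT1, a marker of serous carcinoma, was at 0 in the UWB1.289 DMSO libraries. The 6 fibroblast markers summed to between 22.2 and 60.8 CPM over all libraries, with COL3A1 and LUM at 0 in all 16. The highest of them was COL1A2 in UWB1.289, at means of 48.4 CPM with DMSO and 23.6 with olaparib. In OVCAR3 it was COL1A1, at 24.3 and 36.1 CPM. The 4 endothelial markers summed to 5.86 to 11.5 CPM in UWB1.289 and 0.578 to 3.14 in OVCAR3, and 5 immune markers to 6.32 to 15.2 and 1.15 to 2.95 CPM. The part of these markers in the results was not tested. In bulk RNA, fewer expressing cells and less RNA per cell cannot be told apart.

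In all 4 comparisons the 10 genes passed the filter on low counts. A gene was called when edgeR's quasi-likelihood test gave an adjusted p below 0.1 over all genes tested, and a stricter limit also required over 2-fold change with a normalized count averaging above 10. Olaparib raised 2 of the 10 genes in OVCAR3 (ANKRD1 and CCN2), where 15.5% of 13031 genes were called higher, and lowered 3 (AMOTL2, AJUBA and TEAD1), where 16% were called lower. In UWB1.289 it raised ANKRD1 and lowered AJUBA, against 7.77% of 12748 genes called higher and 6.1% called lower. With DMSO all 10 genes differed between the lines, 7 of them higher in UWB1.289 (39.8% of 13366 genes were) and 3 lower (40.1% were), so that a call between the lines was common among all genes. The effect of olaparib differed between the lines for CCN2, which was lower in UWB1.289 relative to OVCAR3 (5.83% of 14243 genes were), and for AMOTL2, which was higher (5.09% were).

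The stricter limit was met by 5 of the 10 genes between the lines (CCN1, CCN2, ANKRD1, AJUBA and AMOTL2), against 38.4% of all genes tested. It was met by 0 of the 10 with olaparib in OVCAR3, where 5.23% of genes met it, by 0 in UWB1.289 (2.21%) and by 0 in the difference (3.66%), with edgeR as with DESeq2. At an unadjusted p below 0.05, edgeR counted 6, 4 and 3 of the 10 genes in these comparisons, beside 35.8%, 23.1% and 20.9% of all genes it tested. DESeq2 counted 5, 3 and 3, beside 17.9%, 11.1% and 10.5% of all genes with a count, among them the low genes that the edgeR fit left out. The median log2 fold change of the 10 genes was 0.10 in OVCAR3, -0.04 in UWB1.289 and 0.80 between the lines, beside -0.01, -0.00 and -0.02 over all genes tested. The line comparison and both olaparib comparisons use the same DMSO libraries, so their values are given side by side and are not independent.

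**Figure D2:**
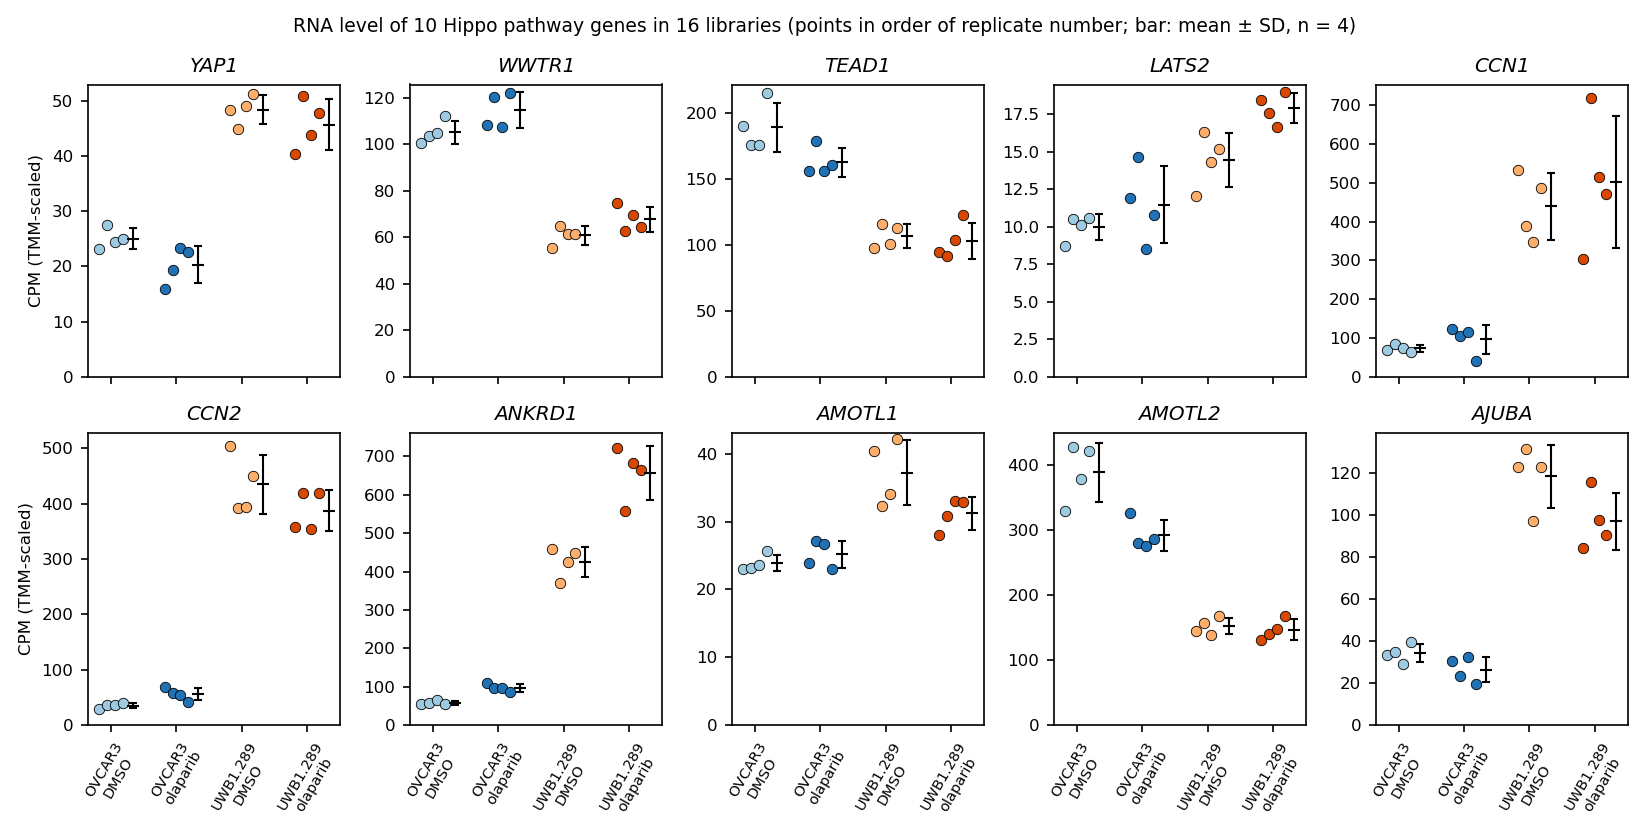
CPM (vertical axis, from 0) of each gene in the 16 libraries, by line and treatment. Points are libraries in order of replicate number and the bar is the mean ± SD of 4 libraries. ANKRD1 rises with olaparib in both lines, CCN2 in OVCAR3, and 1 olaparib library of OVCAR3 is low for CCN1.

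The transcriptional effectors differed between the lines in opposite directions. YAP1 was higher in UWB1.289, and WWTR1 and TEAD1 were higher in OVCAR3. With olaparib the levels of YAP1 and WWTR1 passed the test in neither line, and TEAD1 was slightly lower in OVCAR3.

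YAP1 (ENSG00000137693, chr11:102110447-102233424, plus strand, hg38) encodes the coactivator itself. In OVCAR3 its level was 23.1, 27.6, 24.4 and 24.9 CPM in DMSO replicates 1 to 4 and 16, 19.3, 23.4 and 22.6 CPM in the olaparib replicates. In UWB1.289 it was 48.4, 44.9, 49.0 and 51.2 CPM with DMSO and 40.3, 51.0, 43.8 and 47.8 CPM with olaparib. Every UWB1.289 library lay above every OVCAR3 library, and treated and control libraries overlapped in both lines. The difference between the lines with DMSO was 0.95 on the log2 scale (SE 0.104, 1.94-fold, edgeR adjusted p = 1.52e-09). With olaparib the log2 fold change was -0.29 in OVCAR3 (95% interval -0.57 to -0.01, edgeR adjusted p = 0.125) and -0.08 in UWB1.289 (-0.29 to 0.13, adjusted p = 0.692). The OVCAR3 value passed the limit when olaparib replicate 3 (adjusted p = 0.0915) or 4 (0.0639) was left out, or when all 16 libraries shared 1 estimate of spread (0.0824).

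WWTR1 (ENSG00000018408, chr3:149517235-149736714, minus strand) encodes TAZ, the paralogue of YAP. It ran from 100.4 to 112 CPM in OVCAR3 with DMSO and from 107 to 122 CPM with olaparib, and from 55.3 to 64.9 and from 62.7 to 74.7 CPM in UWB1.289. The lines did not overlap, at 105 ± 4.96 CPM in OVCAR3 against 60.9 ± 4.0 CPM in UWB1.289 with DMSO (SD, n = 4), -0.79 on the log2 scale (edgeR, SE 0.0820, adjusted p = 5.14e-10). The olaparib change was 0.13 on the log2 scale in OVCAR3 (95% interval -0.04 to 0.29) and 0.16 in UWB1.289 (-0.03 to 0.35), and neither passed the test (adjusted p = 0.267 and 0.328).

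TEAD1 (ENSG00000187079, chr11:12674421-12944737, plus strand) encodes a DNA-binding partner of YAP and TAZ. In OVCAR3 it was at 190.0, 176, 175 and 215 CPM with DMSO and 156, 178, 155 and 160.1 CPM with olaparib, so olaparib replicate 2 lay within the control range and the other 3 below it. The log2 change was -0.22 (SE 0.0826, edgeR adjusted p = 0.0632), a call that was lost without DMSO replicate 1 (0.115) or 4 (0.225) or without olaparib replicate 1 (0.145) or 3 (0.161). In UWB1.289 the means were 106 ± 9.0 and 103 ± 13.6 CPM (SD, n = 4), a log2 change of -0.04 (95% interval -0.24 to 0.16). Between the lines with DMSO TEAD1 was lower in UWB1.289 by a log2 difference of -0.83 (SE 0.0817, adjusted p = 1.84e-10). The olaparib effects of YAP1, WWTR1 and TEAD1 did not pass the test of a difference between the lines (adjusted p = 0.513, 0.925 and 0.487).

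LATS2 (ENSG00000150457, chr13:20973036-21061586, minus strand) encodes the kinase that phosphorylates YAP and TAZ. It was at 12, 16.3, 14.3 and 15.1 CPM in UWB1.289 with DMSO and at 18.4, 17.6, 16.6 and 19.0 CPM with olaparib. These groups did not overlap, yet the log2 change of 0.31 did not pass the test (SE 0.139, 95% interval 0.02 to 0.60, edgeR adjusted p = 0.176). In OVCAR3 LATS2 ran from 8.74 to 10.6 CPM with DMSO and from 8.52 to 14.6 CPM with olaparib, a log2 change of 0.20 (95% interval -0.18 to 0.57). It was higher in UWB1.289 than in OVCAR3 with DMSO by 0.53 on the log2 scale (SE 0.162, adjusted p = 0.00433), the smallest of the 10 line differences. LATS2 had the lowest counts of the 10 genes, 1389 over all libraries.

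The angiomotin-like proteins AMOTL1 and AMOTL2 bind YAP and hold it at cell junctions and in the cytoplasm, and AJUBA is a LIM-domain protein that inhibits LATS kinases. AMOTL2 and AJUBA fell with olaparib in OVCAR3. AJUBA also fell in UWB1.289, whereas AMOTL1 passed the test in neither line.

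AMOTL2 (ENSG00000114019, chr3:134355347-134375479, minus strand) was at 329, 428, 379 and 421 CPM in OVCAR3 with DMSO and at 327, 281, 275 and 286 CPM with olaparib. The groups did not overlap, although DMSO replicate 1 and olaparib replicate 1 lay close together. AMOTL2 fell by 0.41 in log2 units (SE 0.0859, edgeR adjusted p = 0.00148), and leaving out any 1 library kept the change between -0.48 and -0.36. In UWB1.289 it was at 145, 157, 139 and 168 CPM with DMSO and 130.4, 141, 148 and 169 CPM with olaparib. These groups overlapped over most of their range, with a log2 change of -0.05 (95% interval -0.24 to 0.14, adjusted p = 0.804). The difference between the olaparib effects was 0.36 (SE 0.129, 95% interval 0.10 to 0.63, adjusted p = 0.0884). This last call was lost in 10 of 16 fits that left out 1 library (UWB1.289 DMSO replicate 1, 2 or 3, UWB1.289 olaparib replicate 3 or 4, OVCAR3 DMSO replicate 2, 3 or 4, OVCAR3 olaparib replicate 2 or 3), where the adjusted p reached 0.263. It was also lost with RLE size factors (0.101) and without the filter on low counts (0.137). With DMSO AMOTL2 was the gene of the 10 with the largest deficit in UWB1.289, at 0.391 times the OVCAR3 level (log2 difference -1.36, SE 0.0817, adjusted p = 2.55e-15).

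AJUBA (ENSG00000129474, chr14:22971177-22982551, minus strand) was at 33.2, 34.6, 29.0 and 39.5 CPM in OVCAR3 with DMSO and 30.2, 23.5, 32.1 and 19.4 CPM with olaparib. In UWB1.289 it was at 123, 131, 96.8 and 123 CPM with DMSO and 84.3, 116, 97.6 and 90.2 CPM with olaparib. Olaparib replicates 2 and 4 of OVCAR3 and 1 and 4 of UWB1.289 lay below all their controls, and the groups overlapped in both lines. In log2 units AJUBA fell by 0.37 in OVCAR3 (edgeR, SE 0.146, adjusted p = 0.0715), and in UWB1.289 it fell by 0.29 (SE 0.106, adjusted p = 0.0982). Both calls stood near the limit, and leaving out 1 library moved the edgeR adjusted p both ways. The lowest were 0.0280 in OVCAR3 (without olaparib replicate 3) and 0.0170 in UWB1.289 (without olaparib replicate 2). The OVCAR3 call was lost with DESeq2 (adjusted p = 0.111) and without DMSO replicate 1, 2 or 4 or olaparib replicate 2 or 4 (adjusted p up to 0.219). The UWB1.289 call was lost with DESeq2 (0.101), with RLE size factors (0.101), with all 16 libraries in the fit (0.149) and without DMSO replicate 1, 2 or 4 or olaparib replicate 1, 3 or 4 (up to 0.263). The line difference was far larger than either change, 3.47-fold higher in UWB1.289 with DMSO (log2 difference 1.79, SE 0.103, adjusted p = 7.13e-16).

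AMOTL1 (ENSG00000166025, chr11:94706431-94876748, plus strand) ran from 23.1 to 25.6 CPM in OVCAR3 with DMSO and from 23.0 to 27.1 CPM with olaparib. In UWB1.289 it was at 40.4, 32.3, 34.1 and 42.2 CPM with DMSO and 28.0, 30.9, 33.1 and 32.9 CPM with olaparib. Only DMSO replicate 2 of the UWB1.289 controls lay within the treated range, but the log2 change of -0.25 did not pass the test (SE 0.116, 95% interval -0.50 to -0.01, edgeR adjusted p = 0.19). In OVCAR3 the change was 0.08 (95% interval -0.16 to 0.32), and the difference between the lines' effects was -0.33 (adjusted p = 0.234). With DMSO AMOTL1 was higher in UWB1.289 by 0.64 on the log2 scale (SE 0.116, adjusted p = 1.15e-05).

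The target genes CCN1, CCN2 and ANKRD1 showed the largest line differences of the 10 genes in the upward direction, all of them more than 6-fold higher in UWB1.289 with DMSO. They moved unequally with olaparib. ANKRD1 rose in both lines, CCN2 rose in OVCAR3 and not in UWB1.289, and CCN1 varied so much between treated libraries that its change passed the test in neither line.

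ANKRD1 (ENSG00000148677, chr10:90912096-90921087, minus strand) encodes a nuclear ankyrin repeat protein. In OVCAR3 it was at 54.6, 56.4, 65.3 and 55.2 CPM with DMSO and 109.9, 97.3, 95.7 and 85.2 CPM with olaparib. In UWB1.289 it was at 458, 370.0, 426 and 448 CPM with DMSO and 723, 558, 684 and 665 CPM with olaparib. In each line all 4 treated libraries lay above all 4 controls. The increase was 1.68-fold in OVCAR3 (log2 0.75, SE 0.0943, edgeR adjusted p = 7.27e-06) and 1.55-fold in UWB1.289 (log2 0.63, SE 0.0875, adjusted p = 3.03e-05). It stayed called without any 1 library, with log2 changes of 0.68 to 0.81 and 0.57 to 0.70. The difference between the effects was -0.11 (95% interval -0.38 to 0.15, adjusted p = 0.691), so a difference between the lines of up to 0.38 lies within the interval. With DMSO ANKRD1 was 7.33-fold higher in UWB1.289 (log2 2.87, SE 0.0844, adjusted p = 5.10e-23).

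CCN2 (ENSG00000118523, chr6:131948176-131951372, minus strand) encodes connective tissue growth factor, a secreted matricellular protein. In OVCAR3 it was at 29.0, 35.8, 35.7 and 39.9 CPM with DMSO and 68.2, 57.6, 54.5 and 41.1 CPM with olaparib, the lowest treated library standing just above the highest control. In UWB1.289 it was at 504, 392, 395 and 450.2 CPM with DMSO and 358, 419, 354 and 419 CPM with olaparib, with the groups overlapping. The log2 change was 0.66 in OVCAR3 (SE 0.134, 95% interval 0.38 to 0.94, edgeR adjusted p = 0.00115) and -0.17 in UWB1.289 (SE 0.0908, 95% interval -0.35 to 0.02, adjusted p = 0.29). The effects differed by -0.82 (SE 0.164, 95% interval -1.16 to -0.48, adjusted p = 0.00144). Without any 1 library the OVCAR3 change lay between 0.54 and 0.78 and the difference between -0.94 and -0.71, all of them called. CCN2 had the largest line difference of the 10 genes, 12.3-fold higher in UWB1.289 with DMSO (log2 3.63, SE 0.0980, adjusted p = 6.75e-24).

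CCN1 (ENSG00000142871, chr1:85580761-85584589, plus strand) encodes CYR61, a secreted protein of the same family as CCN2. In OVCAR3 it was at 67.8, 84.4, 74.5 and 64.4 CPM with DMSO and 124, 104, 114 and 41.3 CPM with olaparib. Olaparib replicates 1, 2 and 3 lay above all controls and olaparib replicate 4 lay below all of them. The log2 change was 0.40 (SE 0.207, 95% interval -0.03 to 0.83, edgeR adjusted p = 0.169), and without olaparib replicate 4 it was 0.66 (adjusted p = 3.81e-07). Without the filter on low counts the change of 0.40 was called (adjusted p = 6.98e-04). In UWB1.289 CCN1 was at 533, 389, 347 and 486 CPM with DMSO and 304, 719, 513 and 471 CPM with olaparib, so the treated libraries held both the lowest and the highest value. The log2 change there was 0.20 (SE 0.168, 95% interval -0.15 to 0.54, adjusted p = 0.531). It was 0.37 without olaparib replicate 1 (adjusted p = 0.0731) and -0.03 without olaparib replicate 2. The coefficient of variation of CCN1 between olaparib libraries was 38.9% in OVCAR3 and 34.1% in UWB1.289, beside medians of 9.83% and 10.4% over genes averaging 100 or more counts. With DMSO CCN1 was 6.04-fold higher in UWB1.289 (log2 2.59, SE 0.107, adjusted p = 2.28e-19), and its olaparib effects differed by -0.21 (95% interval -0.83 to 0.42, adjusted p = 0.777).

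**Figure D3:**
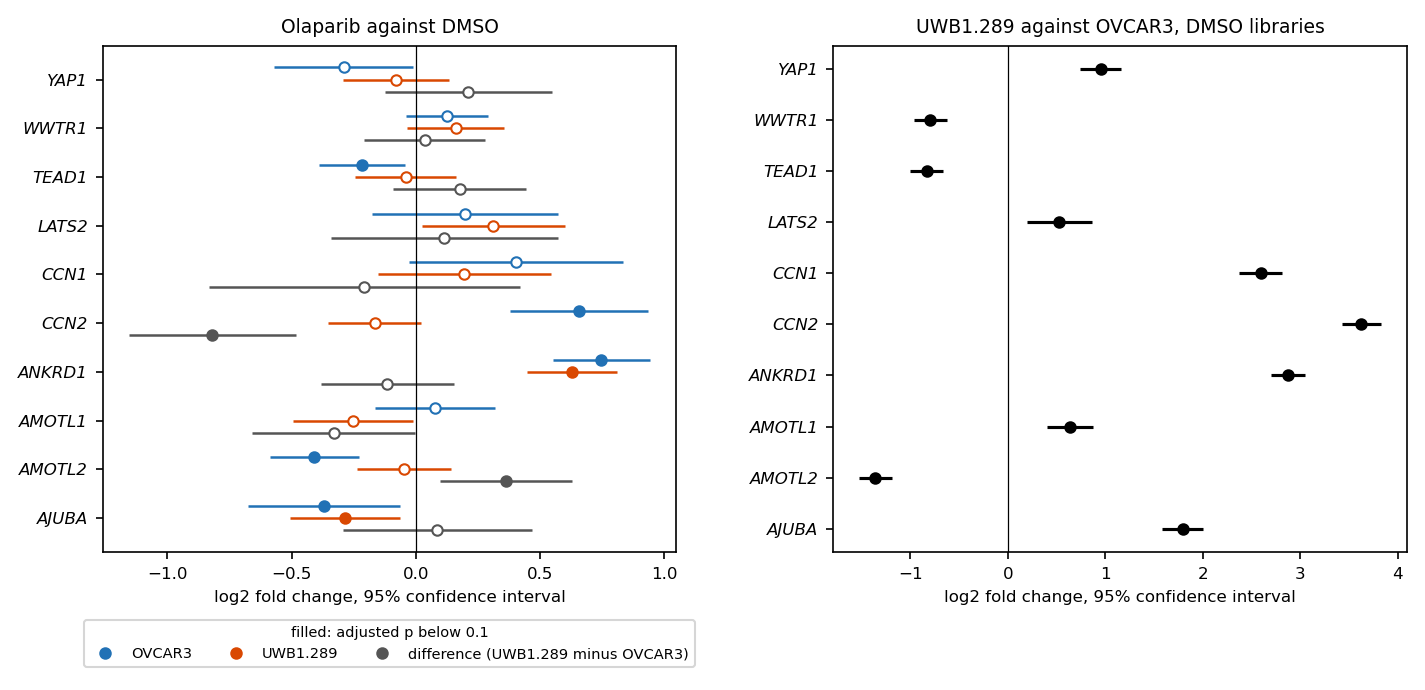
Log2 fold changes with 95% confidence intervals (horizontal axes) for the 10 genes: olaparib against DMSO in OVCAR3, in UWB1.289 and their difference (left), and UWB1.289 against OVCAR3 with DMSO (right). Filled points have an edgeR adjusted p below 0.1. ANKRD1 lies right of 0 in both lines, CCN2 in OVCAR3, and all 10 points on the right lie away from 0.

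The wider pathway was read in 4 lists that share some genes with the 10. Of 19 Hippo kinases and their scaffolds, olaparib raised 5 in OVCAR3 (MAP4K4, SLMAP, SAV1, STK4 and WWC1) and lowered PTPN14, where 15.5% of all genes were called higher and 16% lower, with a list median of 0.13 on the log2 scale. MAP4K4, a kinase that acts in parallel to MST1 and MST2, changed most of the 5 (log2 0.78, edgeR adjusted p = 6.34e-07). In UWB1.289 1 of the 19 rose, FRMD6, a membrane scaffold upstream of the kinases (log2 0.76, edgeR adjusted p = 0.0191), and 0 fell, where 7.77% of all genes rose and 6.1% fell. This call was lost without olaparib replicate 4 (adjusted p = 0.114). With the replicate block, which fits a pairing by replicate number, 5 of the 19 were called: FRMD6, WWC1 and SAV1 higher, and STK3 and WWC2 lower. Leaving out 1 library without the block gave 0 (olaparib replicate 4) to 4 calls (DMSO replicate 3 or olaparib replicate 2), and 2 without olaparib replicate 1. FRMD6 did not pass the test in OVCAR3 (log2 -0.56, adjusted p = 0.242), where its means were only 3.36 CPM with DMSO and 2.26 with olaparib. Of the 19 olaparib effects, 1 was higher in UWB1.289 relative to OVCAR3 (FRMD6) and 2 were lower (MAP4K4 and STK3). Over all genes these shares were 5.09% and 5.83%. The effects on FRMD6 differed by 1.32 (edgeR adjusted p = 0.0303), a call lost without OVCAR3 DMSO replicate 1 (adjusted p = 0.129). Those on MAP4K4 differed by -0.62 (adjusted p = 0.00116) and those on STK3 by -0.48 (0.0372). In UWB1.289 the MAP4K4 change was 0.16 (adjusted p = 0.291). Leaving out 1 library gave 2 to 4 called differences. With DMSO 11 of the 19 were higher in UWB1.289 and 5 lower, where 39.8% and 40.1% of all genes were. The largest of these differences were MAP4K4 (log2 1.27), FRMD6 (1.23), MOB1B (-1.18) and TAOK1 (-1.15).

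Of 6 angiomotin and Ajuba family genes, 3 fell with olaparib in OVCAR3 and 2 in UWB1.289, where 16% and 6.1% of all genes fell, and 0 rose in either. The UWB1.289 count was 0 with DESeq2 and without DMSO replicate 1, 2 or 4 or olaparib replicate 3 or 4, and 1 without olaparib replicate 1. AMOT, the founding angiomotin, fell in OVCAR3 by 1.44 in log2 units (edgeR, SE 0.110, adjusted p = 7.91e-09), from a mean of 125 to 45.8 CPM. It fell by 0.58 in UWB1.289 (adjusted p = 0.0779), from 40.0 to 26.7 CPM, and the effects differed by 0.86 (adjusted p = 0.0348). The UWB1.289 call of AMOT was lost with DESeq2 and without each of those 5 libraries (adjusted p up to 0.324), and the difference was lost with DESeq2 and without UWB1.289 olaparib replicate 1 (up to 0.129). In OVCAR3 the fall of AMOT was called in all 13 alternative fits. The fall of AMOT in OVCAR3 exceeded 2-fold, which the fall of AMOTL2 did not. With DMSO 2 of the 6 were higher in UWB1.289 and 3 lower, where 39.8% and 40.1% of all genes were. AMOT was among the lower (log2 -1.65).

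Among YAP1, WWTR1, the TEAD genes and the TEAD-binding VGLL genes, 8 of 9 were tested in OVCAR3, where TEAD4 rose (log2 0.47, edgeR adjusted p = 0.0126) and TEAD1 fell, and 0 of 9 passed the test in UWB1.289. Over all genes 15.5% rose and 16% fell in OVCAR3, and 7.77% and 6.1% in UWB1.289. Leaving out 1 library gave 1 call in OVCAR3 (without DMSO replicate 1 or 4 or olaparib replicate 1) to 4 calls (without olaparib replicate 4), and in UWB1.289 0 calls, or 1 without olaparib replicate 1. The difference in TEAD4 between the lines did not pass it (log2 -0.44, adjusted p = 0.163). With DMSO all 9 differed between the lines, 4 higher in UWB1.289 and 5 lower, where 39.8% and 40.1% of all genes were. VGLL3 (log2 2.83) and VGLL1 (log2 1.24) were among the higher, VGLL3 from a mean of only 0.815 CPM in OVCAR3. VGLL4, a repressor of TEAD activity (log2 -1.5), and TEAD2 (log2 -1.33) were among the lower.

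Of 21 tested genes that respond to YAP and TAZ, olaparib raised 4 in OVCAR3 and lowered 9, and in UWB1.289 it raised 6 and lowered 3. Over all genes the shares called higher and lower were 15.5% and 16% in OVCAR3 and 7.77% and 6.1% in UWB1.289. The UWB1.289 count of 9 was 6 with DESeq2 and 5 without DMSO replicate 1 or 4 or olaparib replicate 3 or 4, whereas the OVCAR3 count of 13 lay between 11 and 13 without any 1 library. The list medians, 0.02 and 0.12, lay near those of all genes. NUAK2, a kinase gene, fell by 1.06 on the log2 scale in OVCAR3 (edgeR adjusted p = 5.17e-06). GADD45A, a DNA damage response gene, rose by 1.14 in UWB1.289 (adjusted p = 8.15e-09) and IGFBP3, which encodes a binding protein of insulin-like growth factors, rose by 1.02 (adjusted p = 6.24e-06). In OVCAR3 GADD45A rose by 0.48 and IGFBP3 fell by 0.51. Of the 21 olaparib effects, 5 were called higher in UWB1.289 relative to OVCAR3 and 2 lower (CCN2 and ASAP1). Over all genes these shares were 5.09% and 5.83%. Among the higher, IGFBP3, NUAK2 and CCDC80 differed between the lines by 1.53, 1.39 and 1.18 (adjusted p = 1.19e-06, 4.63e-06 and 3.65e-07). ASAP1 differed by -0.38 (adjusted p = 0.0220), in the direction of CCN2. With DMSO all 21 genes differed between the lines, 14 higher in UWB1.289 and 7 lower, where 39.8% and 40.1% of all genes were. The stricter limit was met by 10 higher and 6 lower, beside 38.4% of all genes in either direction. FJX1 (log2 -2.82) and CCDC80 (-2.76) were lowest. AXL, a receptor tyrosine kinase, F3, which encodes tissue factor, and NT5E, which encodes CD73, were higher by 6.39, 5.92 and 4.61, beyond the 3.63 of CCN2. Their means in OVCAR3 with DMSO were only 1.86, 2.42 and 5.70 CPM, beside 35.1 CPM for CCN2, so their log2 values rest on low levels in OVCAR3.

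**Figure D4:**
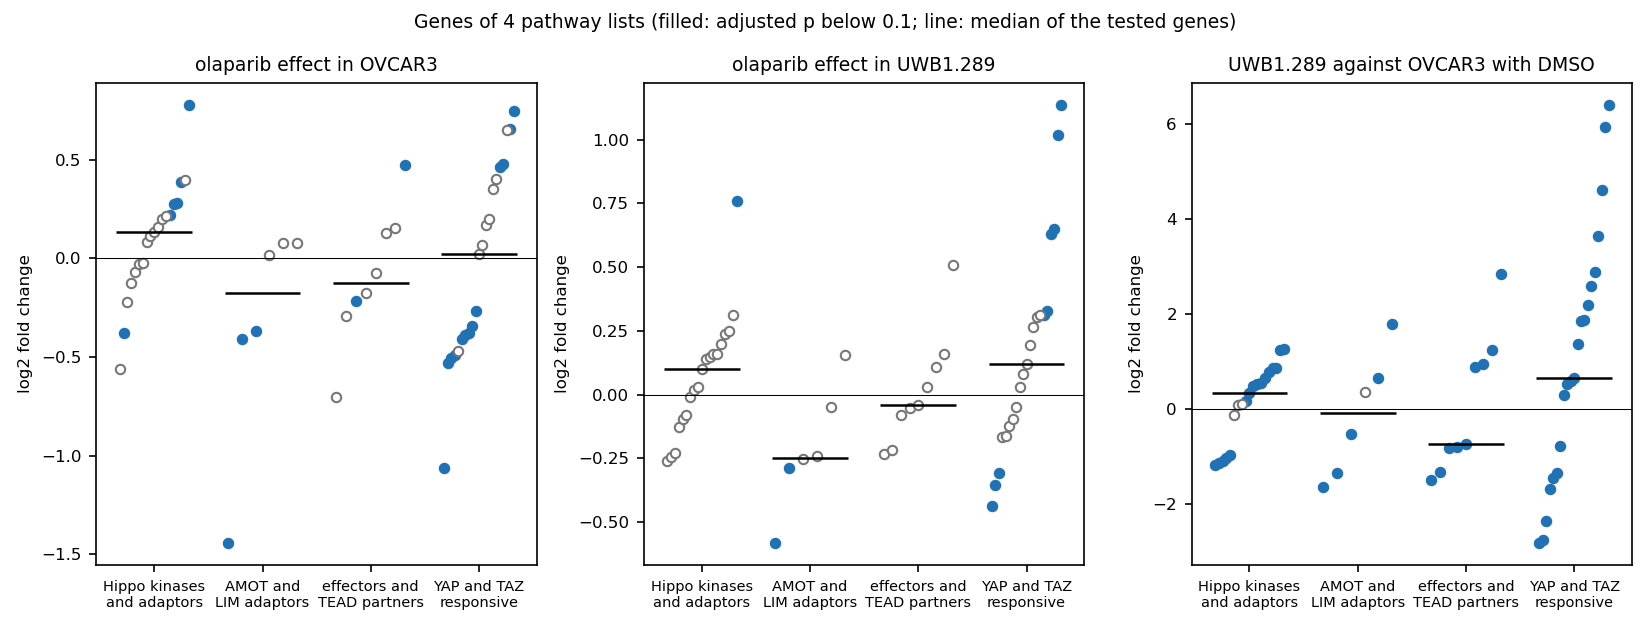
Log2 fold change (vertical axes, which differ between panels) of each tested gene of the 4 pathway lists with olaparib in OVCAR3, with olaparib in UWB1.289 and between the lines with DMSO. Filled points have an edgeR adjusted p below 0.1 and lines are medians of the tested genes. The responsive genes run from -1.06 (NUAK2) to 0.75 (ANKRD1) in OVCAR3.

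Likeness of pattern over the 16 libraries was measured as the root mean square distance between log2 CPM values after each gene was centred on its own mean, over 13241 genes, so that the difference between the lines enters it. Closest to CCN2 were CDH2, which encodes N-cadherin (0.244), UCA1 (0.259) and MOCOS (0.266). Closest to CCN1 were ZFAS1 (0.331), MTLN (0.335) and IL18 (0.349), and closest to YAP1 were GORASP2 (0.134), CYC1 (0.137) and OXA1L (0.141). Among the 10 genes the closest pairs were WWTR1 with TEAD1 (0.185) and TEAD1 with AMOTL2 (0.257). CCN2 lay 0.387 from ANKRD1 and 0.499 from CCN1.

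Some of the 10 genes share exons with other annotated genes, and the sources used here do not state whether strand was used in counting. WWTR1-AS1, on the opposite strand, had 71 counts over all libraries against 9115 for WWTR1. RPL39P5, a pseudogene within AMOTL2 on the same strand, had 90 against 25629, and LINC01013, opposite CCN2, had 0. AJUBA, YAP1 and AMOTL1 also overlap exons of genes that have no matching symbol in the table, so their own counts remain uncertain to that extent.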

How the data were processed

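The deposited values are raw counts per gene. The authors processed single-end reads, with BBDuk for trimming, STAR 2.7.9a for alignment to hg38 and featureCounts 2.0.0 (versions from the submitters' processing notes) on GENCODE 38, and no normalization was applied before deposit. Gene positions here are from GENCODE 44 and promoters from RefSeq. The 10 genes and the pathway and marker lists were chosen with earlier results of these data known. From the counts, CPM were computed with TMM factors over all 16 libraries (R 4.3.3). In each comparison, edgeR 4.0.16 (filterByExpr, TMM, quasi-likelihood F test) was fitted to all genes passing the filter on the libraries of the groups compared, 8 for a comparison within 1 treatment or line and 16 for the difference, with Benjamini-Hochberg adjustment. To give an SE, each log2 fold change was divided by the root of F. Tests were checked on counts simulated with 200 changed genes in each comparison. Of these edgeR found 200, with 18 to 28 false calls, and DESeq2 found 199 or 200, with 19 to 37. The simulation used 1 spread for all genes and 1 size of change, larger than any olaparib change of the 10 genes. It therefore does not show how well smaller changes are found. Each of the 10 genes is described, and list genes are named where they met the stricter limit, up to 4 for each list and comparison. Other list genes (TEAD4, SLMAP, WWC2, STK3, SAV1, STK4, WWC1, PTPN14, ASAP1, FJX1 and the values set beside a named gene) were chosen after their values were seen.

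Replicate numbers are shared by DMSO and olaparib libraries of a line. After removal of group means, same-numbered libraries correlated at 0.133 to 0.247 across 9152 genes in UWB1.289, and differently numbered ones at -0.266 to 0.192. In OVCAR3 these ranges were 0.058 to 0.184 and -0.230 to 0.157 across 9374 genes. The main tests used no pairing in either line, and a replicate block was fitted only as an alternative, in both lines alike. Since the ranges overlap in both lines, the correlations do not settle whether the numbers pair the samples. The labels give the numbers and do not state a pairing. Alternatives were DESeq2 1.42.0, RLE size factors, no filter, all 16 libraries in 1 fit, other thresholds, the replicate block and leaving out each library.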

Additional observations from a re-analysis of the deposited data

Results flagged for a closer look

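CCN1 in OVCAR3 with olaparib had 1 library far from the others. Olaparib replicate 4 stood at 5.38 on the log2 CPM scale while the other 3 treated libraries stood between 6.71 and 6.96, a gap larger than Dixon's 95% limit for 4 values. It was 1 of 40 groups of gene, line and treatment examined, and chance gives such a gap in about 1 group in 20.

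The olaparib effect differed between the lines for 2 of the 10 genes by the test of the difference itself. For CCN2 the effect in UWB1.289 minus that in OVCAR3 was a log2 value of -0.82 (edgeR adjusted p = 0.00144). For AMOTL2 it was 0.36 (adjusted p = 0.0884), which was lost without any 1 of 10 of the 16 libraries.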

How the results depend on the processing

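Of the 10 genes, 5 were called with olaparib in OVCAR3, 2 in UWB1.289, 10 between the lines and 2 in the difference. With an adjusted p below 0.05 these counts were 3, 1, 10 and 1, and with the stricter limit on fold and average count 0, 0, 5 and 0. In OVCAR3 DESeq2 called 4, and no filter and the fit of all 16 libraries each called 6. DESeq2 called 1 in UWB1.289, as did RLE size factors and the fit of all 16 libraries. RLE size factors and no filter each left 1 in the difference. Leaving out 1 library gave 3 to 6, 1 to 2, 10 to 10 and 1 to 2 calls. The replicate block, which uses the pairing by replicate number, gave 5, 2, 10 and 2 calls and changed no call or direction in any of the 40 results on the 10 genes, though it moved the count of called Hippo kinases and scaffolds in UWB1.289 from 1 to 5. In both lines this block rests on replicate numbers, and same-numbered correlations overlap those of differently numbered libraries. The uncalled WWTR1 difference turned to -0.0032 without the filter. Leaving out 1 library turned the sign of further uncalled values, which ranged in UWB1.289 from -0.12 to 0.0063 for AMOTL2, from -0.14 to 0.0086 for TEAD1 and from -0.031 to 0.37 for CCN1. In the difference they ranged from -0.016 to 0.070 for WWTR1, from -0.042 to 0.20 for AJUBA and from -0.0064 to 0.23 for LATS2. The cause was not tested. The change of LATS2, the gene with the lowest counts, had an SE of 0.179 in OVCAR3 and 0.139 in UWB1.289.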
